A study of Mus musculus with 2 samples.

Results

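The genes described here are 10 genes grouped as immediate early genes: Fos, Fosb, Fosl1, Jun, Junb, Jund, Egr1, Nr4a1, Nr4a2 and Nr4a3. Cells switch on many genes of this class within minutes of a stimulus, without making new protein. Fosl1 is a later member, and the product of Jund is present in resting cells. The 10 genes were taken by symbol from the gene lists of both libraries. They are 10 of 31053 genes counted. The libraries are single-cell RNA libraries (10x Genomics Chromium 3′, version 2) of stromal cells from the perivascular fat around the aorta of wild-type mice, 1 library labelled young and 1 labelled old. Both tissues were minced and kept in 0.2% collagenase for 45 min at 37 °C, per the labels' protocols. The labels name neither the ages nor the number of mice, nor a stretch of aorta, and say nothing of culture before capture.

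The FOS proteins (from Fos, Fosb and Fosl1) and the JUN proteins (from Jun, Junb and Jund) pair through leucine zippers and form AP-1, a transcription factor that binds the TRE motif. Egr1 encodes a zinc finger factor that growth factor signals induce through serum response factor. Nr4a1, Nr4a2 and Nr4a3 encode orphan nuclear receptors that act without a known natural ligand and are induced by cyclic AMP, calcium and inflammatory signals. In single-cell work these genes are also known as markers of the response of cells to enzymatic digestion of a tissue, since Fos, Fosb, Jun, Egr1 and Atf3 can be induced while the cells are being released.

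With 1 library per age there is no replicate, so no test across animals exists and no difference below has a replicate check. Levels are UMIs (unique molecular identifiers, which mark single RNA molecules) of a gene per 1000000 UMIs of the same cells, abbreviated CPM. Intervals are 95% intervals of counting error only. A gene is counted as higher or lower from 1.5-fold, if it had at least 20 UMIs in both groups together. Between groups of cells of the same library, the UMIs of the reference group were first scaled to the total UMIs of the other group. Each such count stands beside the percentage of all genes that passed the same limit. After filtering, 11453 young and 12207 old cells were analysed, with medians of 8916 and 9230 UMIs per cell. Cell types were set by counts of marker genes: 10028 young and 10000 old cells passed the fibroblastic gate, 32 and 1070 the blood endothelial, 346 and 62 the mesothelial, and 94 and 98 the Schwann gate. The old library also held 98 adipocyte-gated and 105 macrophage-gated cells. The 10 fibroblastic markers together stood at 7055 CPM in young and 5960 CPM in old fibroblastic-gated cells. In clusters built without the 10 genes, 14 of 16 fibroblastic clusters drew over 90% of their cells from 1 library. With 1 library per age, library and age cannot be told apart. The libraries shared 275 barcodes.

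On GRCm38 (GENCODE vM21), Fos (ENSMUSG00000021250) lies on chromosome 12 from 85473890 to 85477273, Fosb (ENSMUSG00000003545) on chromosome 7 from 19302696 to 19310051 and Fosl1 (ENSMUSG00000024912) on chromosome 19 from 5447547 to 5455946. Jun (ENSMUSG00000052684) lies on chromosome 4 from 95049034 to 95052222, and Junb (ENSMUSG00000052837) and Jund (ENSMUSG00000071076) lie on chromosome 8 from 84974484 to 84978718 and from 70698949 to 70700616. Nr4a1 (ENSMUSG00000023034) lies on chromosome 15 from 101254269 to 101274795, Nr4a2 (ENSMUSG00000026826) on chromosome 2 from 57106830 to 57124003 and Nr4a3 (ENSMUSG00000028341) on chromosome 4 from 48045153 to 48086447. Egr1 is ENSMUSG00000038418.

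Promoter windows are shown for Fos and the 3 NR4A genes because their old against young ratios had opposite signs (given further on). The table of RefSeq start sites (GRCm38.p6) held windows for 8 of the 10 genes, each from 250 bases before to 50 bases after the start given there, which may differ from the start used in these cells. Fosl1 and Egr1 had no window. The 250 bases before the start are printed 5′ to 3′ on the gene's strand. Capitals mark TGACG, the core of the CRE motif bound by the cyclic AMP factor CREB, on either strand (CGTCA on the other strand).
Fos, chr12:85473640-85473889, plus strand: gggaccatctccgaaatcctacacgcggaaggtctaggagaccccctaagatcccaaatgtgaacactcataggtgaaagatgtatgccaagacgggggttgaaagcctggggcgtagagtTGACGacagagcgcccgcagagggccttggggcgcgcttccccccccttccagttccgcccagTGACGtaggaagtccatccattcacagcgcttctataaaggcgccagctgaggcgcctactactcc
Nr4a1, chr15:101266596-101266845, plus strand: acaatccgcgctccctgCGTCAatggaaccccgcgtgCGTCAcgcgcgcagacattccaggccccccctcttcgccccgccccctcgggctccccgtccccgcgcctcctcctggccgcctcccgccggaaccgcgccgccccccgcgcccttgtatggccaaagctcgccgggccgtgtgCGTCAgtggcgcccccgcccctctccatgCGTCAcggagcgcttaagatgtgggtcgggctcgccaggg
Nr4a2, chr2:57124004-57124253, minus strand: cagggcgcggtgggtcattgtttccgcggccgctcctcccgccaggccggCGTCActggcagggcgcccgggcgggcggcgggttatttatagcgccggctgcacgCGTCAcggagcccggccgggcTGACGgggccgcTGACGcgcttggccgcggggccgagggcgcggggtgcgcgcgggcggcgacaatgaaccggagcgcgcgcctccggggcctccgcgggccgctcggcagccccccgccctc
Nr4a3, chr4:48045055-48045304, plus strand: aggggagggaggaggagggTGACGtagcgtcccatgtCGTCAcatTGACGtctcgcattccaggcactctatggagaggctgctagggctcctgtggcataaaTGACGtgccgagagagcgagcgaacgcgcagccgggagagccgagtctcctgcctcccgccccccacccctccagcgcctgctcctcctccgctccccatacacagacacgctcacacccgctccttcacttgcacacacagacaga
The windows of Nr4a1, Nr4a2 and Nr4a3 each held 4 TGACG matches, that of Fos held 2, those of Fosb and Junb 1 each, and those of Jun and Jund 0. The 250 bases of Jund ended at 70697738, before the gene start of 70698949 given above, and those of Nr4a1 lay inside the gene as given above. Of 32841 mouse windows, 20.815% held at least 1 match and 0.231% held at least 4. The full palindrome TGACGTCA, which contains TGACG on both strands, was in 1.79% of windows. The AP-1 motif TGANTCA was in 7.81%, the NR4A motif AAAGGTCA in 1.507% and the CArG box of serum response factor in 1.629%. None of these longer motifs was found in the 8 windows. A match is a description of letters and not a measured binding site. The printed windows were chosen by ratios in these same data, and a link between matches and ratios was not tested.

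The main contrast was that of old against young fibroblastic-gated cells, which hold collagens and Pdgfra among their markers. There, 6 of the 10 genes were higher in the old library (19.8% of 15115 genes were) and 1 was lower (12.4% of genes). The median log2(old/young) was 0.81 over the 10 genes and 0.13 over all genes tested. The NR4A genes and Fosl1 had the widest ratios of the 10, and Fos was the gene that was lower. At a 2-fold limit 0 genes were lower (6.55% of all genes).

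Among the FOS genes, Fos itself, the short-lived partner that peaks within an hour of stimulation in many cells, stood at 225 CPM in young and 136 CPM in old fibroblastic-gated cells. The level was thus 1.65-fold lower in the old library, a log2(old/young) of -0.73 (95% interval -0.76 to -0.70). Fosb, which encodes a relative of Fos with a similar time course, stood at 48.3 and 40.7 CPM, a log2 ratio of -0.25 (-0.31 to -0.19). Fosl1, the gene of FRA1, a later and longer-lived member linked to matrix remodelling and inflammation, stood at 18.4 CPM in young and 86.0 CPM in old cells. Its ratio ran the other way, 4.68-fold higher in old (log2 2.23, 2.15 to 2.30). The 3 FOS genes therefore did not share a direction between the libraries.

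Of the JUN genes, Jun, the partner that binds strongly with FOS proteins, had a level of 59.6 CPM in young and 119.6 CPM in old fibroblastic-gated cells, 2.01-fold higher in old. Junb, often described as a weaker activator that can restrain JUN, stood at 256 and 343 CPM, 1.34-fold higher in old. Jund, whose product is present in resting cells, stood at 236 and 329 CPM, 1.39-fold higher. Junb and Jund were under the 1.5-fold limit. Junb overlaps Prdx2 on the opposite strand by 351 bases, and Prdx2 stood at 278 CPM in young and 366 CPM in old cells. No source used here says whether the counting used strand, so the Junb values are uncertain by the reads of that overlap. The other overlapping genes had low levels: Junos (over Jun) 0.88 and 1.22 CPM, Gm11175 (over Jund) 1.37 and 2.93 CPM, and Ccdc85b (over Fosl1) 4.22 and 10.2 CPM.

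Egr1, the zinc finger gene, stood at 142 CPM in young and 218 CPM in old fibroblastic-gated cells, 1.54-fold higher in old (log2 0.62, 0.59 to 0.65). Nr4a1, which encodes NUR77, stood at 74.0 and 287 CPM, 3.88-fold higher in old. Nr4a2, the gene of NURR1, stood at 16.8 and 59.9 CPM, 3.57-fold higher. Nr4a3, the gene of NOR1, stood at 5.45 and 36.0 CPM, 6.61-fold higher, from 556 young and 3787 old UMIs. The NR4A ratios thus ran from 3.57-fold to 6.61-fold in these cells, all toward the old library. The 10 genes together held 1082 CPM in young and 1656 CPM in old cells, a log2 ratio of 0.61 (0.60 to 0.63).

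**Figure D1:**
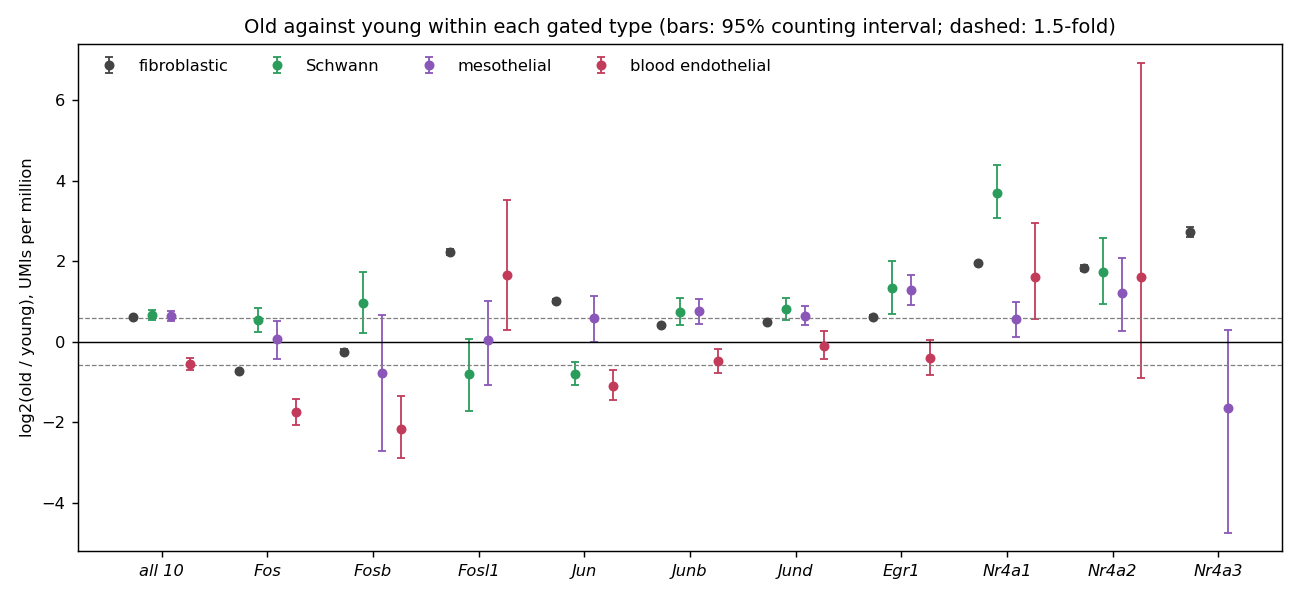
Log2(old/young) of the 10 genes together and of each gene (x axis) within 4 gated types, with 95% counting intervals; dashed lines mark 1.5-fold and groups with 0 UMIs are left out. In fibroblastic-gated cells Fos lies at -0.73 while Nr4a1, Nr4a2 and Nr4a3 lie between 1.83 and 2.72.

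The old against young ratios were also read in ranges of the fibroblastic gate that hold cycling, smooth muscle, progenitor or pericyte markers. These are ranges and not cell types. The cycling range held 2058 young (20.5%) and 1994 old (19.9%) fibroblastic-gated cells. From 6 to 7 of the 10 genes were higher in old in each of these 4 ranges, and 0 or 1 was lower. The percentage of all genes higher in old was 16.9% in the cycling, 15.9% in the contractile, 25.7% in the progenitor and 27.2% in the pericyte range, and the percentage lower was 10.6%, 10.7%, 11.7% and 12.7% in that order. Fosl1 and the 3 NR4A genes were higher in old in all 4 ranges. In the pericyte range this rests on few young UMIs: 6 of Fosl1, 27 of Nr4a1, 3 of Nr4a2 and 2 of Nr4a3. A cell could lie in more than 1 range, so the ranges are not separate sets of cells. Fos passed the limit in the cycling (log2 -0.64) and contractile (-0.78) ranges and not in the progenitor (-0.56) or pericyte (-0.30) range. Fosb stood at 51.8 and 52.9 CPM in the progenitor range and at 28.2 and 51.9 CPM in the pericyte range, the latter 1.84-fold higher in old from 10 young UMIs in 21 cells, with an interval that includes 0 on the log2 scale. Within the old library, the cells with at least 4 progenitor markers (1042 of the 10000) had the NR4A genes above the fibroblastic cells outside the ranges. Nr4a3 stood at 65.4 against 34.9 CPM (1.87-fold), Nr4a2 at 94.9 against 61.4 CPM (1.54-fold) and Nr4a1 at 375 against 271 CPM (1.38-fold). Fos (145 against 147 CPM) and Jun (126 against 121 CPM) lay close together there. The 2 of 10 genes past 1.5-fold, Nr4a3 and Nr4a2, stand beside 6.59% of all genes, and 0 of 10 were lower, beside 3.24%. In the 115 young cells of the progenitor range, Nr4a3 stood at 6.02 against 6.42 CPM (from 10 UMIs), Nr4a2 at 19.9 against 18.3 CPM and Nr4a1 at 93.4 against 73.7 CPM (1.27-fold), so none of the 3 passed the limit there. The limit of the progenitor range cuts through a continuum, with 817 old cells at it and 2310 cells 1 marker below. In the young library 110 of the 115 cells lay at the limit and 1050 lay 1 marker below. The young and old ranges thus differ in how far their cells lie past it.

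The second question was which cell types held the genes. In the old library, fibroblastic-gated and Schwann-gated cells held the most of the 10 genes together, 1656 and 2080 CPM. Adipocyte-gated cells held 988 CPM, macrophage-gated cells 925 CPM, mesothelial-gated cells 918 CPM and endothelial-gated cells 849 CPM, and the counting intervals of the adipocyte, macrophage and mesothelial sums overlapped. In the young library the order was different: Schwann-gated cells stood at 1323 CPM, endothelial-gated cells at 1254 CPM from 32 cells, fibroblastic-gated cells at 1082 CPM and mesothelial-gated cells at 589 CPM. The 95% counting intervals of the young Schwann and endothelial sums overlapped.

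**Figure D2:**
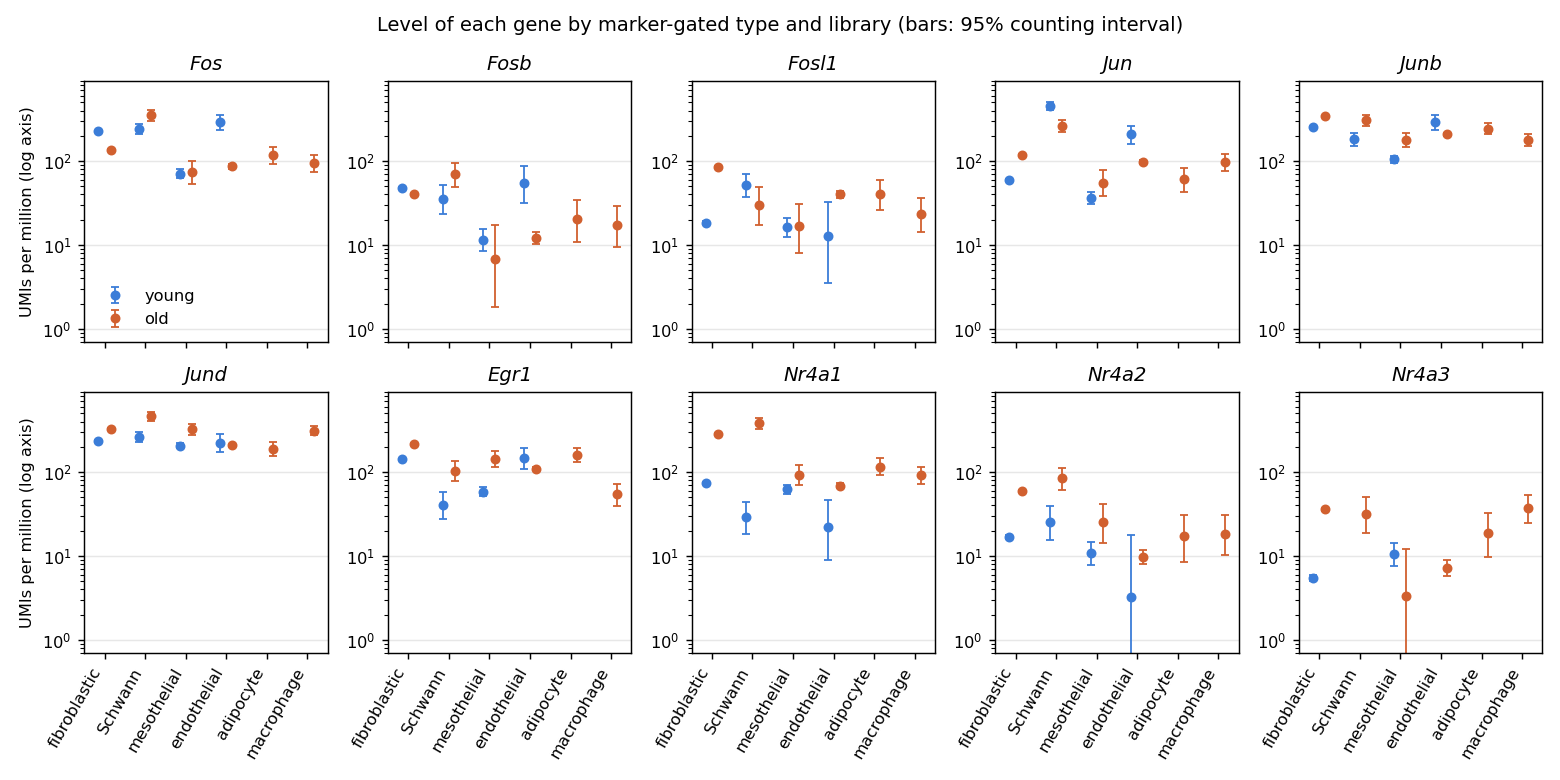
Level of each of the 10 genes (CPM, log axis) in marker-gated types of the young and old library, with 95% counting intervals; types with under 20 cells and points at 0 UMIs are not drawn. The Nr4a1 point of old fibroblastic-gated cells, at 287 CPM, lies above the young point at 74.0 CPM.

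Blood endothelial cells line vessels, and shear stress and growth factors can induce Egr1, Fos and NR4A genes in them. In the old library 0 of the 10 genes were higher and 9 were lower in endothelial-gated than in fibroblastic-gated cells, beside 15.6% and 25.6% of all genes. Nr4a2 stood at 9.78 CPM against 59.9 CPM (6.13-fold lower), Nr4a3 at 7.17 against 36.0 CPM (5.01-fold lower) and Nr4a1 at 68.8 against 287 CPM (4.17-fold lower). Jun, at 97.6 against 119.6 CPM, was the gene under the limit. Of 4 genes known from fibroblasts, Col1a1 stood in old endothelial-gated cells at 12.4% of its fibroblastic level, Col1a2 at 11.2% and Lum at 17.1%, while Dcn stood at 224%. The part of RNA from other cells in these values was not tested. As a ratio to the fibroblastic level, Nr4a1 stood at 0.24, Nr4a3 at 0.20 and Nr4a2 at 0.16.

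Fos, Fosb and Jun were higher in the 32 young endothelial-gated cells than in the 1070 old ones. Fos stood at 291 CPM in young and 86.5 CPM in old endothelial-gated cells, 3.37-fold lower in old. Fosb stood at 54.4 and 12.1 CPM (17 and 148 UMIs), 4.51-fold lower, and Jun at 208 and 97.6 CPM, 2.13-fold lower. Nr4a1 stood at 22.4 and 68.8 CPM, from 7 young UMIs, 3.07-fold higher in old (log2 interval 0.57 to 2.94). In all, 3 genes were higher in old (16.5% of all genes), each from 1 to 7 young UMIs, and 3 were lower (26.7%). Against young fibroblastic-gated cells, 1 of 7 measured genes was higher (24.7% of genes), Jun at 208 against 59.6 CPM, and 1 was lower (15.9%), Nr4a1 at 22.4 against 74.0 CPM. The young side rests on 392 UMIs of the 10 genes, and Nr4a3 had 0 UMIs there, which allows up to 3 UMIs and therefore no fold. The percentages of all genes in this comparison also depend on setting a 0 to 3 UMIs in these few cells.

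Schwann cells are the glia of peripheral nerve, and Jun is the factor that drives their repair state after nerve injury. Jun stood at 454 CPM in young Schwann-gated cells against 59.6 CPM in young fibroblastic-gated cells, 7.61-fold higher (log2 interval 2.77 to 3.08). In the old library it stood at 262 against 119.6 CPM, 2.19-fold higher. Schwann-gated cells were thus higher for Jun in both libraries. Egr1 was lower there in both, 40.7 against 142 CPM in young and 103 against 218 CPM in old cells. In each library 3 genes were higher and 2 lower than in fibroblastic-gated cells, beside 29.4% and 15.9% of all genes in the young and 22.8% and 15.5% in the old library.

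Between the libraries, Jun was 1.73-fold lower in old Schwann-gated cells (454 and 262 CPM), the reverse of its ratio in fibroblastic-gated cells. Nr4a1 stood at 29.2 CPM in young and 380.1 CPM in old Schwann-gated cells (23 and 203 UMIs), 13.0-fold higher in old (log2 3.70, 3.08 to 4.39). Nr4a3 had 0 young and 17 old UMIs, too few for the counts of higher genes. The lower 95% bound of its log2 ratio was 2.60, and with the young count set to 3 UMIs the ratio would be 8.35-fold. Nr4a2 stood at 25.4 and 84.2 CPM, 3.31-fold higher. Fos stood at 241 CPM in young and 350.1 CPM in old Schwann-gated cells, the latter 2.57-fold above old fibroblastic-gated cells. Altogether 6 genes were higher in old Schwann-gated cells (16.7% of all genes) and 2 lower (12.4%), of 9 with enough UMIs. At a 2-fold limit 3 were higher (6.59%) and 0 lower (4.48%). As a percentage of the fibroblastic level, Col1a1 stood at 40.2% in young and 62.2% in old Schwann-gated cells and Col1a2 at 50.4% and 74.3%. Dcn stood at 10.4% and 14.4%, and Lum at 28.2% in young with 0 UMIs in old cells. The 4 genes thus gave different percentages, and the part of RNA from other cells was not tested.

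Mesothelial cells cover the serous surfaces. Here the 10 genes together stood at 589 CPM in young and 918 CPM in old cells. In the young library 6 genes were lower than in fibroblastic-gated cells (14.3% of all genes) and 1 was higher (16% of genes). Fosb stood at 11.6 against 48.3 CPM (4.17-fold lower) and Fos at 70.7 against 225 CPM (3.18-fold lower), while Nr4a3 stood at 10.6 against 5.45 CPM (1.95-fold higher). In the old library 9 genes were lower (19.3% of genes) and 0 higher (12.1%), from 62 cells. Of these lower genes, Nr4a2, Fosl1, Fosb and Nr4a3 had 15, 10, 4 and 2 old mesothelial UMIs. These genes reached the UMI limit only with the scaled fibroblastic UMIs. Between the libraries, 5 genes were higher in old (15.4% of genes) and 2 lower (17.3%). At a 2-fold limit 2 were higher (6.35%) and 1 lower (7.77%). Egr1 stood at 58.4 and 143 CPM, 2.45-fold higher in old. The 2 lower genes, Fosb and Nr4a3, had 4 and 2 old UMIs, and both intervals of their ratios include 0 on the log2 scale.

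Adipocytes store lipid, and macrophages are the phagocytes of the tissue. These 2 types were compared with fibroblastic-gated cells in the old library alone. The median mitochondrial share was 6.47% in adipocyte-gated, 2.47% in macrophage-gated and 2.28% in fibroblastic-gated cells. Col1a1 stood at 19.9% of its fibroblastic level in adipocyte-gated and 30.3% in macrophage-gated cells. In the same order Col1a2 stood at 22.1% and 31.4%, Dcn at 20.7% and 43.9%, and Lum at 44.6% and 47.2%. The part of RNA from other cells was not tested. In adipocyte-gated cells 7 of the 10 genes were lower and 0 higher (26.5% and 20.1% of all genes). Nr4a2 stood at 17.1 against 59.9 CPM and Fos at 118 against 136 CPM. Of the lower genes, Fosb, Nr4a3 and Nr4a2 had 13, 12 and 11 adipocyte UMIs. They reached the limit of 20 UMIs only with the scaled fibroblastic UMIs. In macrophage-gated cells 6 were lower and 0 higher (31.6% and 18% of all genes). The same held there for Fosl1, Nr4a2 and Fosb, lower from 19, 15 and 14 macrophage UMIs. Egr1 stood there at 54.3 against 218 CPM, 4.02-fold lower, and Nr4a3 at 37.1 against 36.0 CPM. At 2000 UMIs per cell, Nr4a3 was seen in 1 of 104 macrophage-gated cells (0.96%) against 6.02% of old fibroblastic-gated cells, and without thinning in 9 of 105 (8.57%) against 22.5%, so its level in macrophage-gated cells rests on few cells.

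**Figure D3:**
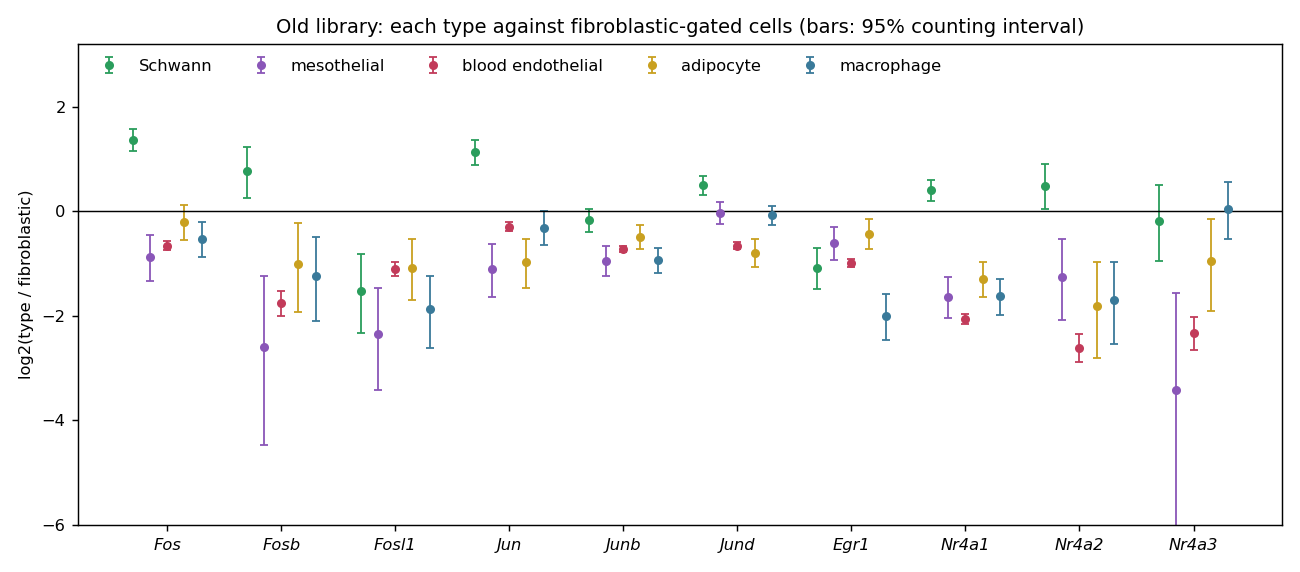
Log2 ratio of each gene's level in 5 gated types to that in fibroblastic-gated cells of the old library, with 95% counting intervals. Schwann-gated points for Fos, Fosb and Jun lie above 0, and every endothelial-gated point lies below 0.

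The number of the 10 genes found together in a cell was counted after each cell had been thinned to 2000 UMIs, with shallower cells left out. In young fibroblastic-gated cells 83.3% held at least 1 of the genes and 8.75% held at least 4 (95% interval 8.20 to 9.32, 9935 cells). In old ones 91.1% held at least 1 and 20.3% at least 4 (19.5 to 21.1, 9942 cells). Without thinning the shares with at least 4 were 69.8% and 84.6%. No gated type is known to lack these genes, so no share of free RNA can be read from them directly.

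Old Schwann-gated cells had at least 4 genes in 22.7% of 97 cells (14.8 to 32.3), and young ones in 14.9% of 94 cells (8.39 to 23.7). Those 2 intervals overlap. For endothelial-gated cells the share was 4.16% of 1058 old cells and 6 of 29 young cells, 20.7% with an interval of 7.99 to 39.7. Mesothelial-gated cells stood at 0.87% of 345 young cells and 0 of 62 old cells, with an upper 95% bound of 5.78%. Old adipocyte-gated cells had 5.10% and macrophage-gated cells 3.85%. The old progenitor range reached 28.6% of 1042 cells (25.9 to 31.4). No cell of these types had all 10 genes at this depth, and the most was 9, in old cells.

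**Figure D4:**
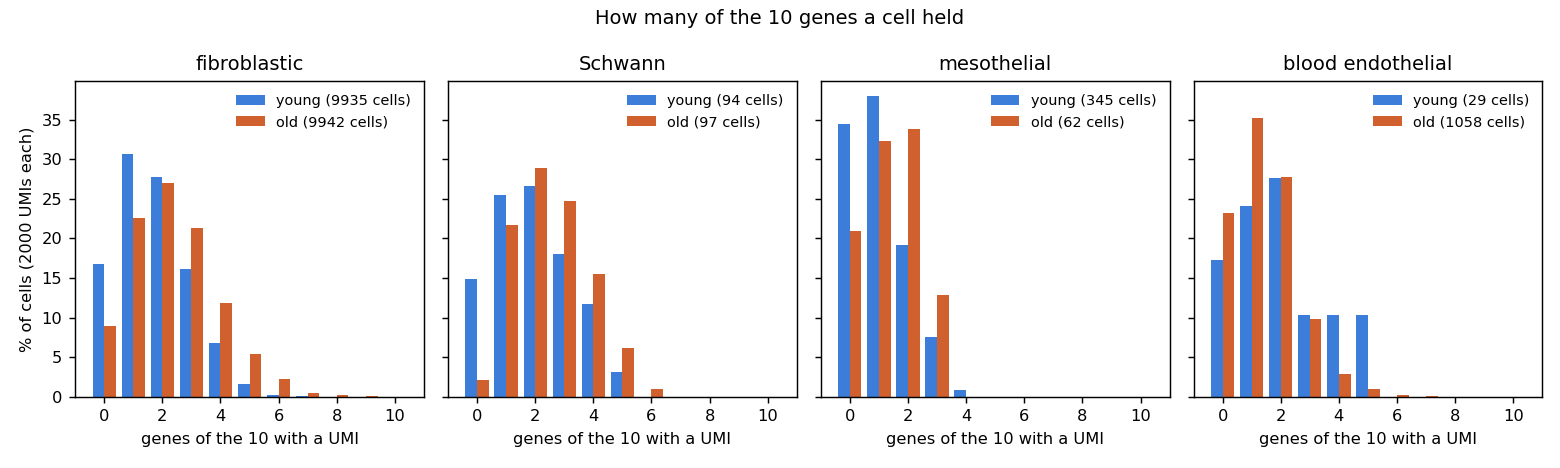
Percentage of cells (y axis, each thinned to 2000 UMIs) by how many of the 10 genes had a UMI, for 4 gated types in the young and old library. Old fibroblastic-gated bars reach further right, with 20.3% of cells at 4 or more genes against 8.75% in young.

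The share of cells with a UMI was also read gene by gene. Nr4a1 was seen in 13.0% of young and 38.4% of old fibroblastic-gated cells at 2000 UMIs, Fosl1 in 3.01% and 14.5%, and Nr4a3 in 1.05% and 6.02%. Jun was seen in 10.4% and 18.3%, and Egr1 in 25.2% and 33.8%. Fos was seen in 34.1% of young (33.2 to 35.1) and 18.1% of old cells. In Schwann-gated cells Jun was seen in 52.1% of young and 35.1% of old cells. Fos was seen in 36.2% of young and 24.7% of old Schwann-gated cells, although its level was 241 CPM in young and 350.1 CPM in old.

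Fos was spread over cells in different ways in the libraries. The 10% of fibroblastic-gated cells with most Fos held 49.7% of its thinned UMIs in young and 70.4% in old cells. Such a share also depends on the mean, which was 0.49 thinned Fos UMIs per cell in young and 0.27 in old cells. The variance of the count over its mean was 1.37 in young and 2.14 in old cells, and the highest count was 8 and 15 UMIs. Cells with at least 4 Fos UMIs, a limit chosen after the values had been seen, were 84 of 9935 young cells (0.85%) and 104 of 9942 old cells (1.05%). They held 7.61% of the Fos UMIs of young and 19.9% of those of old cells. Just under the limit, at 3 UMIs, lay 237 young and 99 old cells. In old Schwann-gated cells 5 of 97 cells held 54.1% of the Fos UMIs, so the Fos level of that type rests on few cells. In young Schwann-gated cells 0 of 94 cells were past the limit.

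The cells rich in Fos were then compared with the other fibroblastic-gated cells of the same library for genes other than Fos, whose values chose the cells. In old cells, 9 of the 9 other genes of the family list were higher (5.6% of 7773 genes were) and 0 were lower (5.94%). Fosb stood at 457 against 36.2 CPM, 12.6-fold higher (log2 3.66, 3.52 to 3.79). Jun stood at 743 against 113 CPM, 6.58-fold higher, and Jund at 908 against 323 CPM, 2.81-fold higher. The NR4A genes were between 2.11-fold and 2.58-fold higher, and Fosl1, at 131 against 85.6 CPM, was 1.53-fold higher. Atf3, which encodes a stress-induced partner of JUN, stood at 249 against 14.7 CPM, 17.0-fold higher.

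Other genes known from digestion and stress responses were read in the same old cells. Zfp36, whose product destabilises immediate early mRNAs, stood at 316 against 48.2 CPM (6.55-fold higher), and Dusp1, a phosphatase that switches off MAP kinases, at 471 against 186 CPM (2.54-fold higher). Hspa1a, an inducible heat shock chaperone, stood at 81.4 against 10.7 CPM (7.63-fold higher), and Klf2 at 722 against 163 CPM (4.43-fold higher); these 2 genes were named after their values had been seen. Of 33 other immediate early genes measured 19 were higher and 1 lower, of 18 heat shock genes 5 higher and 0 lower, and of 25 feedback inhibitors 11 higher and 2 lower. Of 15 textbook AP-1 target genes 6 were higher, of 8 other AP-1 partners 2 and of 20 upstream regulators 1, with 0 lower in these 3 lists. All these counts stand beside 5.6% of all genes higher and 5.94% lower. Nab2, a corepressor of EGR1, stood at 35.8 against 40.2 CPM, and Fosl2 at 207 against 188 CPM.

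In young cells rich in Fos, 5 of 7 measured genes of the family list were higher (8.32% of 5826 genes were) and 0 were lower (4.1%). Fosb stood at 150.1 against 47.6 CPM (3.15-fold higher) and Jun at 179.5 against 58.8 CPM (3.05-fold higher). Egr1 stood at 300.2 against 141 CPM, 2.14-fold higher, while Nr4a1 stood at 92.8 against 73.9 CPM, 1.26-fold. The Fosb and Jun ratios were thus lower than in old cells, those of Egr1 (2.14-fold and 1.64-fold in old) and Junb (1.87-fold and 1.72-fold in old) were not, and the differences were not tested. Atf3 had 2 UMIs in these cells, too few to be measured. Fosl1 (2 UMIs) and Nr4a3 (3 UMIs) were left out of the 7 genes for the same reason. Fosl1 stood at 3.09 against 18.5 CPM, with a log2 interval of -5.62 to -0.72, while it was higher in old cells rich in Fos. Of 15 heat shock genes 1 was higher and 2 were lower, and of 28 other immediate early genes 7 were higher and 1 lower. Of 18 feedback inhibitors 6 were higher and 1 lower, of 12 textbook AP-1 target genes 1 higher and 3 lower, of 20 upstream regulators 2 higher and 0 lower, and of 6 other AP-1 partners 0 were past the limit. The median share of mitochondrial UMIs was 2.63% in young cells rich in Fos and 2.62% in the others, and 2.02% and 2.28% in old cells. The median depth was 6726.5 and 9246 UMIs in young and 8983 and 9426.5 UMIs in old cells. Both libraries had the same digestion time, per the labels' protocols, and the part of digestion in these values was not tested.

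**Figure D5:**
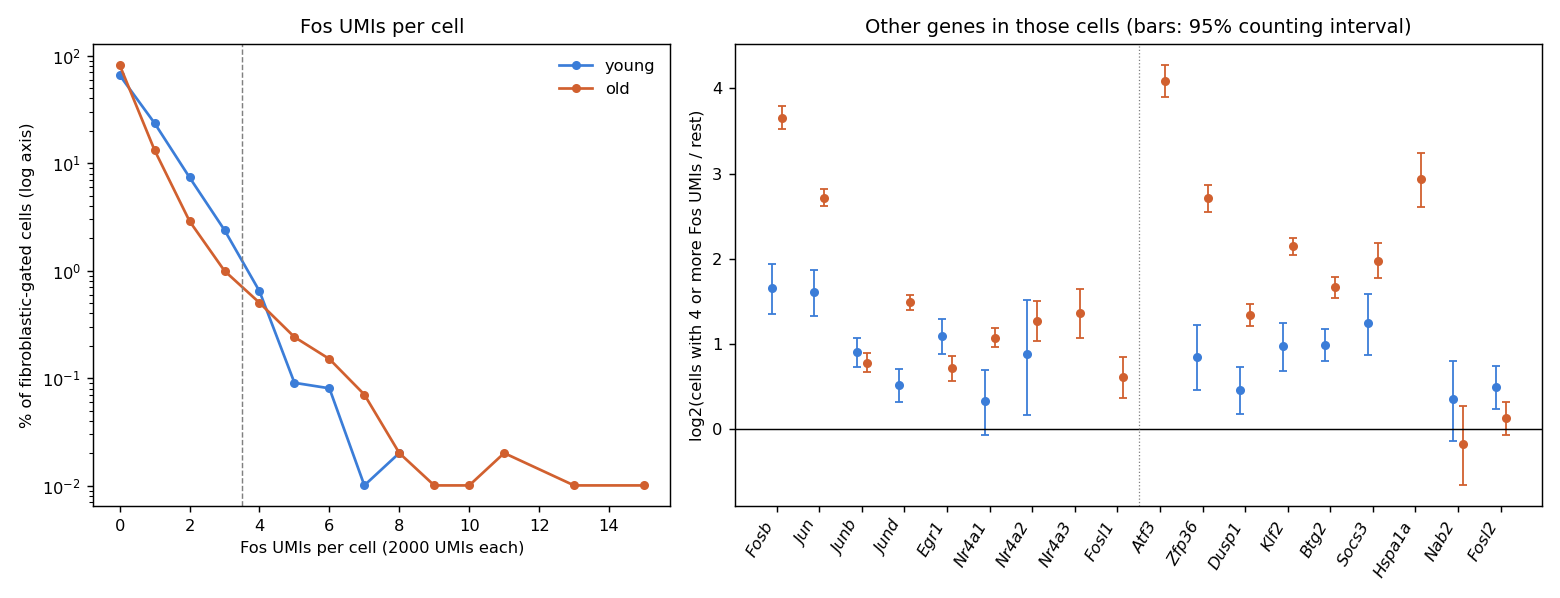
Left, percentage of fibroblastic-gated cells (log axis) by Fos UMIs per cell at 2000 UMIs, with the limit of 4 dashed; right, log2 ratio of other genes in cells past the limit to the rest, with 95% counting intervals, genes of the family list left of the dotted line. In old cells Atf3 lies at 4.09 and Fosb at 3.66, and in young cells Fosb lies at 1.66.

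Pairs of genes were also read cell by cell in fibroblastic-gated cells at 2000 UMIs. Fosb was seen in 15.1% of old cells with Fos and 3.70% of those without, and in 12.5% and 6.11% of young cells. Jun was seen in 40.5% of old cells with Fosb and 16.9% of those without, and in 18.9% and 9.65% of young cells. Nr4a3 was seen in 11.6% of old cells with Nr4a2 and 5.42% of those without, and in 1.23% and 1.04% of young cells. As a description, Spearman's rho over cells was 0.20 for Fos and Fosb and 0.11 for Nr4a1 and Nr4a2 in 9942 old cells, and 0.13 and 0.04 for the same pairs in 9935 young cells. All cells of a library share their preparation.

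Partners and regulators of the family were read from lists of textbook genes, in old against young fibroblastic-gated cells, where 19.8% of all genes were higher and 12.4% lower. Of 13 other AP-1 partners 2 were higher and 2 lower: Atf3 stood at 2.70 CPM in young and 17.1 CPM in old cells (6.34-fold higher), and Jdp2, a repressor that pairs with JUN, at 8.51 and 4.46 CPM (1.91-fold lower). Fosl2, the gene of FRA2, stood at 143 and 189 CPM. Of 24 upstream regulators 0 were higher and 3 lower, among them Mef2c at 31.1 and 7.66 CPM (4.06-fold lower) and Srf, which encodes serum response factor, at 26.9 and 12.9 CPM (2.10-fold lower). The list medians were 0.02 and 0.04 on the log2 scale, beside 0.13 for all genes.

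Of 38 other immediate early genes 13 were higher in old and 9 lower, beside 19.8% and 12.4% of all genes. Ier3 stood at 105 and 627 CPM (5.98-fold higher) and Phlda1 at 162 and 546 CPM (3.38-fold higher), while Ctgf, a matricellular gene that YAP and serum response factor regulate, stood at 227 and 54.0 CPM (4.20-fold lower). Npas4 stood at 1.36 and 0.34 CPM. Feedback inhibitors had 16 of 26 genes higher and 1 lower, with a median of 0.82. Tnfaip3, an inhibitor of NF-κB signalling, stood at 1.75 and 28.4 CPM (16.2-fold higher), Nfkbia at 98.9 and 432 CPM (4.37-fold higher) and Crem, a gene of the cyclic AMP pathway, at 9.71 and 43.3 CPM (4.46-fold higher). Dusp1 stood at 125 and 189 CPM, Zfp36 at 50.8 and 51.0 CPM and Nab2 at 48.6 and 40.2 CPM. Zfp36, which was 6.55-fold higher in old cells rich in Fos, thus had nearly the same summed level in both libraries.

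Textbook AP-1 target genes had 13 of 19 members higher in old and 1 lower (19.8% and 12.4% of all genes), with a median of 1.98. Il6 stood at 29.4 and 851 CPM (29.0-fold higher), Ccl2 at 105 and 2842 CPM (27.1-fold higher), Il11 at 3.38 and 132.8 CPM (39.3-fold higher) and Areg at 0.29 and 12.9 CPM (43.9-fold higher). These genes have other known regulators as well, NF-κB among them. Heat shock genes had 4 of 18 higher and 2 lower, beside the same 19.8% and 12.4% of all genes, with Bag3 at 41.0 and 118 CPM (2.89-fold higher), Hsph1 at 22.7 and 51.4 CPM (2.27-fold higher) and Cryab at 1007 and 602 CPM (1.67-fold lower).

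Over the 9 groups of library and type with at least 50 cells, the genes whose level was most like that of the 10 genes together were Arhgap42 (Pearson r 0.95), Bmp1 (0.95), Snx15 (0.94), Pigs (0.94), Tmco3 (0.94) and Col14a1 (0.94), of 7974 genes compared on log2(CPM + 1). Of the members themselves, Nr4a2 had an r of 0.91 with the sum, Junb 0.83, Egr1 0.27 and Nr4a3 0.19. The 9 points come from 2 libraries, and r is given as a description.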

How the data were processed

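Counts of UMIs per gene and barcode were deposited by the authors, unnormalized and written by Cell Ranger 3.0.1, per the file headers, on mm10, per the submitters' processing notes. No source used here states the annotation release or the rule that kept barcodes. There were 13104 young barcodes with 130398999 UMIs and 14636 old barcodes with 147166475 UMIs.

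The filter asked for at least 500 genes per cell and no more than 10% mitochondrial UMIs. Scrublet (scanpy 1.11.5) marked 0 cells by its automatic threshold, so the cells with the highest scores were removed, 0.8% per 1000 cells (1302 young, 1504 old); how many doublets remain is not known. A type other than fibroblastic needed at least 4 of its own markers and at most 2 of every other non-mesenchymal list. The fibroblastic gate needed at least 4 of 10 fibroblastic markers and at most 2 of every such list. These limits were set after marker counts had been seen. Cells meeting no gate (945 young, 761 old) entered no comparison.

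UMIs were summed per library and type and scaled to CPM, with exact Poisson intervals for levels, exact conditional Poisson intervals for ratios and Clopper-Pearson intervals for shares, at 95%. UMI counts have no length scaling, so levels of different genes are not ranked. A 0 was set to 3 UMIs in ratios over all genes. The ratio and its interval were tested on simulated data, drawn as Poisson counts with known folds. Such counts hold no extra spread between cells or animals, so that spread was not covered. The genes, lists and tests were chosen with earlier results of these data known. All 10 genes are named; from each list up to 4 with the largest ratio in fibroblastic-gated cells and at least 100 UMIs, plus Dusp1, Zfp36, Nab2, Atf3 and Fosl2, and the 6 genes most like the sum. Gene overlaps came from GENCODE vM21 (GRCm38), where 30934 of 31053 identifiers were found.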

Additional observations from a re-analysis of the deposited data

Results flagged for a closer look

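Some genes differed between types in the direction of their old against young ratio. These differences between types were not tested, since each type has 1 library per age. Jun was higher in old fibroblastic-gated cells (log2 1.01) and lower in old endothelial-gated cells (-1.09), 2.10 log2 units apart, and lower in old Schwann-gated cells (-0.79), 1.80 units apart. Mesothelial-gated cells, where Jun was higher in old (0.60), lay 1.69 units from endothelial-gated and 1.39 units from Schwann-gated cells. Fosb was higher in old Schwann-gated cells (0.96) and lower in old endothelial-gated cells (-2.17), 3.13 units apart, from 28 young and 37 old UMIs in the former and 17 young UMIs in the latter.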

How the results depend on the processing

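Each age has 1 library, so the intervals cover counting error and the spread between animals is not known. The fewest cells lay behind the young endothelial-gated (32 cells) and old mesothelial-gated (62 cells) values. No paired analysis was possible because each group has 1 sample and no test was made. Of 350 values of single genes under other settings, 323 lay within the counting interval of the reported log2(old/young) and 27 lay past it. The sums of the 10 genes, the counts of genes past the limit and the shares with at least 4 genes moved more often. For these, 58 values stayed and 34 moved. Sums and shares moved if past their interval, and counts if they changed by more than 1.5-fold or to or from 0. A reversal was counted only where the reported interval excluded 0 on the log2 scale, and 0 were found. Where that interval included 0, a change of sign was not counted. Leaving out the 275 shared barcodes, a setting chosen after seeing the data, kept the 4 sums of the 10 genes within their intervals. Where a value moved, the cause was not tested.

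The log2(old/young) of the 10 genes together kept its direction in all 4 types under every setting. With clusters in place of gates it was 0.81 in mesothelial and 0.49 in Schwann cells. Without cycling cells it was 0.60 in fibroblastic-gated and 0.50 in mesothelial-gated cells. Median-of-ratios scaling, which shifted fibroblastic ratios by 0.12, gave 0.49 there, and weighting each cell equally gave 0.57 in fibroblastic-gated and -0.78 in endothelial-gated cells. With a 2-fold limit, the genes higher in old numbered 2 in mesothelial-gated (6.35% of all genes) and 3 in Schwann-gated cells (6.59%), and those lower numbered 0 in fibroblastic-gated (6.55%), 1 in mesothelial-gated (7.77%) and 0 in Schwann-gated cells (4.48%).

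The share of cells with at least 4 genes moves with depth by construction. At 1000 UMIs it was 1.57% in young and 5.15% in old fibroblastic-gated cells, 4.26% and 4.08% in Schwann-gated cells, and 0% and 0.93% in endothelial-gated cells. At 4000 UMIs these shares were 31.2% and 50.4%, 41.1% and 49.3%, and 44% and 16.7%, and mesothelial-gated cells had 11.2% and 21.3%. For at least 6 genes the shares were 0.32% and 2.97% in fibroblastic-gated, 0% and 1.03% in Schwann-gated and 0% and 0.38% in endothelial-gated cells, and 0% in young mesothelial-gated cells. Without doublet removal the old mesothelial-gated share was 6.25%. Cells with at least 5 Fos UMIs, also chosen after seeing the data, were 0.20% of young and 0.54% of old fibroblastic-gated cells, and those with at least 3 were 3.23% and 2.04%. At 4000 UMIs, cells with at least 5 were 2.31% and 1.90%, so which library has more cells rich in Fos depends on the limit.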

Other observations

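Barcodes outside the analysed cells held the 10 genes too. Barcodes over the mitochondrial limit stood at 776 CPM for the 10 genes together in the young library (240 barcodes) and 1165 CPM in the old library (846 barcodes), beside 1054 and 1548 CPM in the analysed cells. Cells without a gate stood at 817 CPM in young and 1257 CPM in old. Nr4a1 had the same order there, with 42.0 CPM in young and 186 CPM in old cells without a gate.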
